A study of Arabidopsis thaliana with 24 samples.

Results

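Detached leaves of Arabidopsis thaliana (ecotype Columbia-0) were followed for 240 min after cordycepin, in the mock arm of a study of RNA turnover. The 12 libraries described here are all those labelled mock, of 24 in the series, and were chosen by that label alone. They fall into 4 groups of 3, taken at 0, 15, 60 and 240 min, and each group holds the replicates numbered 2, 3 and 4. Leaves 1 and 2 of soil-grown plants, 10 d old and kept in continuous light, were surface sterilised in bleach and floated with shaking for 8 h in a buffer of mineral salts, glucose and dimethyl sulfoxide. All 4 groups had this buffer, with no hormone added, and each library came from a pool of whole leaves. Cordycepin (1 mM) was then added to every group, and the group labelled 0 min was frozen first.

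Cordycepin is an adenosine analogue that lacks the hydroxyl group to which the next nucleotide is joined, so an RNA chain that takes it up cannot be extended. It is used in plants to stop the making of new RNA, after which the level of a transcript follows its breakdown. Short-lived plant transcripts include those of many transcription factors and of the SAUR (small auxin up RNA) family, whereas organelle transcripts and many housekeeping messages are long-lived. Where most RNA is lost, a stable transcript takes a growing share of the reads, so levels are given below in CPM (counts relative to the library's total) scaled in each library to 30 transcripts presumed stable. A change is log2 of (scaled CPM + 1) minus the same at 0 min in the same replicate series, the 4 libraries that carry 1 replicate number.

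Per library, total counts were 24021278 to 32763368, and 18993 to 20635 features reached 10 counts. Summed scaled CPM of 4 leaf markers was 10224 to 17836 over the 12 libraries, against 1.72 to 13.1 for 4 root, 0.408 to 2.20 for 4 seed and 1.55 to 3.01 for 3 flower markers. The root-hair genes LRX1 and EXPA7, the seed storage gene CRU3 and the floral genes AP3 and AG were at 0 in at least 1 library. The 3 series stood apart in their time courses, so each is given on its own. The SAUR genes described below had a median near their 0 min level at 60 min in series 2, and a higher median at 240 min than at 60 min in series 3. Whether the labels of arm, time and replicate hold for those libraries was not tested, and values are given as labelled. Whether a replicate number marks a shared culture or day is not given in the labels, and p-values below measure the spread between these libraries only.

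Relative to the stable transcripts, most features were lower at every later time in series 4 and in series 3, whereas the median of series 2 stayed near 0. Over 9765 features with a mean of at least 10 CPM, the median change at 15, 60 and 240 min was -0.47, -0.96 and -1.12 in series 4. In series 3 it was -0.21, -0.48 and -0.22, with 240 min nearer to 0 min than 60 min was. In series 2 it was 0.02, 0.12 and 0.07. In a tissue sample, fewer cells of a type and less RNA per cell cannot be told apart.

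Features past 2-fold lower made up 15.1%, 47.7% and 55.6% of those features in series 4 at 15, 60 and 240 min. The shares were 1.33%, 18.7% and 3.2% in series 3 and 0.123%, 0.0512% and 0.154% in series 2. Features past 2-fold higher were fewer, with 0.123%, 0.625% and 0.338% in series 4 and 0.041%, 0.133% and 0.563% in series 3. Series 2 held 2.05%, 0.573% and 0.84% of features past 2-fold higher, most of them at 15 min. At 60 min, 1641 of the 1824 features past 2-fold lower in series 3 were also past it in series 4, which is 90.0% of that list and 35.3% of the 4655 in series 4. Each library has its own scaling, and each series its own 0 min library.

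**Figure D1:**
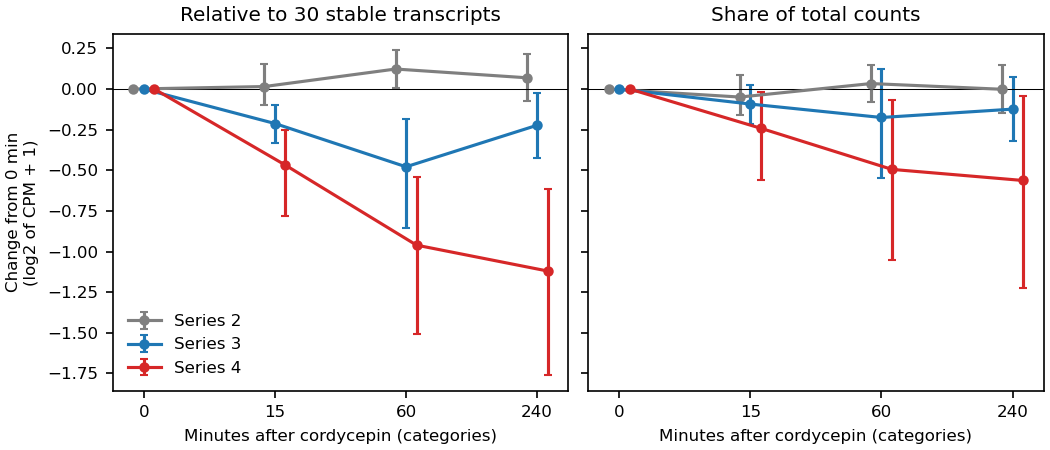
Median change from 0 min over 9765 features in each replicate series (points; bars span the quartiles), with minutes after cordycepin as categories on the x axis and log2 change of CPM + 1 on the y axis. Relative to stable transcripts (left), series 4 reaches -1.12 at 240 min and series 2 stays within 0.12 of 0. In share of total counts (right) the same medians are -0.24, -0.49 and -0.56 in series 4.

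Over the 3 series together, no single feature passed the replicated test. edgeR's quasi-likelihood test called 0% of 21139 features lower and 0% higher at 15, at 60 and at 240 min against 0 min (smallest adjusted p 0.93, 0.555 and 0.705). At an unadjusted p under 0.05, 14, 144 and 75 features were lower at the 3 times and 575, 567 and 273 were higher. At each time these are together fewer than a 0.05 share of the 21139 features, which such a threshold passes where nothing differs. With the replicate number as a block the balance turns to lower at 60 and 240 min. DESeq2 called 0 features lower at each time, and 0, 3 and 1 higher. Those were WAKL3 (AT1G16140), AT1G71520 and AT5G05220 at 60 min and WAKL3 at 240 min, with means over the 12 libraries of 0.774, 0.907 and 2.07 CPM. At 240 min WAKL3 had 2.88 scaled CPM in series 4 and 0 in series 3 and 2, and at 60 min 1.62, 1.94 and 0. At 60 min AT1G71520 had 2.14, 1.18 and 0.784 in series 4, 3 and 2, and AT5G05220 had 12.8, 0.873 and 1.40. Without series 2 and with the replicate number as a block, a fit added after the data were seen, edgeR called 642 features lower at 60 min (2.99% of 21457) and 204 higher (0.951%), and none at 15 or 240 min. At an unadjusted p under 0.05 that fit had 955 lower and 938 higher at 15 min, and 5457 lower and 627 higher at 240 min. Values are therefore described by series below.

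Among the gene lists, those with the lowest medians at 15 min in series 3, apart from the single ZAT gene above the filter, were SAUR messages and transcription factors of the MYB family. Both were also low in series 4. SAUR genes encode small proteins that promote cell expansion, and MYB factors control pigment, glucosinolate and epidermal genes. Of 80 SAUR features, 5 had a mean of at least 10 CPM, and all 5 were past 2-fold lower at 15 min in series 3 and in series 4, where 1.33% and 15.1% of all features were. Their median change at 15, 60 and 240 min was -2.79, -3.94 and -4.21 in series 4, -1.89, -3.36 and -1.53 in series 3 and -0.60, -0.03 and -0.35 in series 2. AT4G38840 was the highest of the 5 at 60 min, with -4.37, -2.37 and -0.03 in series 4, 3 and 2. The filter is set by the mean over all 12 libraries.

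SAUR16 (AT4G38860) had the largest median change over the series at 15 min among features lower in all 3. Its scaled CPM at 0, 15, 60 and 240 min was 59.5, 6.17, 2.04 and 0.707 in series 4, 58.2, 13.3, 2.88 and 24.7 in series 3 and 69.9, 27.3, 57.8 and 53.7 in series 2. All 3 libraries of 15 min lay below all 3 of 0 min, with a fitted change of -2.01 ± 1.33 (SE; edgeR adjusted p 0.93). SAUR6 (AT2G21210) ran 59.3, 10.6, 4.95 and 3.91 in series 4 and 97.9, 25.5, 8.62 and 24 in series 3, against 68.3, 49.8, 48.1 and 53.1 in series 2. SAUR51 (AT1G75580) ran 20.1, 1.71, 0.373 and 0.136 in series 4, 27.9, 6.81, 0.987 and 8.23 in series 3 and 17.2, 8.98, 26.8 and 22.5 in series 2. These 3 genes were the first named at 15 min, and in series 3 each stood higher at 240 min than at 60 min.

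Of 125 MYB features, 13 passed the filter, and 11 of them in series 4 and 8 in series 3 were past 2-fold lower at 15 min. Their median at 15, 60 and 240 min was -1.94, -2.74 and -3.12 in series 4, -1.16, -2.13 and -1.08 in series 3 and -0.05, 0.24 and -0.09 in series 2. MYB34 (AT5G60890), a regulator of indole glucosinolate synthesis, was lowest of the family at 60 min, by the median over the 3 series, which orders the members of every list below. It ran 26.2, 2.41, 0.896 and 0.544 CPM at the 4 times in series 4 and 26.1, 11, 1.59 and 13 in series 3, against 24.4, 24.5, 27.4 and 21.7 in series 2. MYB15 (AT3G23250) was the highest of the family at 60 min, with changes of 0.40, -1.55 and 1.42 in series 4, 3 and 2.

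At 60 min the largest median changes among features lower in all 3 series were those of NAC083, bHLH071 and AT2G30766. NAC083 (AT5G13180), a NAC-domain factor, ran 37.9, 2.57, 1.05 and 0.408 CPM at 0, 15, 60 and 240 min in series 4, 56.6, 24.1, 2.35 and 22.3 in series 3 and 38, 32.6, 36.8 and 44.5 in series 2, with a fitted change at 60 min of -1.72 ± 1.43 (SE; edgeR adjusted p 0.555). bHLH071 (AT5G46690), a basic helix-loop-helix factor, ran 38.8, 2.77, 0.349 and 0.408 in series 4, 50.3, 22.3, 2.05 and 23.6 in series 3 and 37.1, 19.5, 32.5 and 27 in series 2. For both, most of the difference from 0 min in series 4 was present at 15 min, with lower values after it. In series 3 the 60 min library was the lowest for both. AT2G30766, an uncharacterised protein in the annotation, ran 122, 12.1, 1.34 and 1.33 CPM in series 4, 105, 68.8, 5.77 and 65.8 in series 3 and 117, 95.9, 97.3 and 39.6 in series 2.

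At 240 min BHLH100, RVE2 and AT1G48330 led the lower features. BHLH100 (AT2G41240), a factor of the iron deficiency response, ran 26.3, 5.24, 0.373 and 0.245 in series 4, 15.6, 21.9, 1.90 and 15.4 in series 3 and 33.8, 37.5, 18.8 and 3.67 in series 2. In series 2 its library of 240 min was the lowest of the 4, whereas in series 3 it stood near its 0 min level. RVE2 (AT5G37260), a MYB-like factor related to the clock genes CCA1 and LHY, ran 45.2, 16, 11.2 and 8.02 CPM in series 4, 106, 36.1, 21.5 and 21 in series 3 and 35.9, 25.4, 28 and 27.1 in series 2. AT1G48330 ran 14.9, 0.923, 1.37 and 0.571 CPM in series 4, 37.6, 13.9, 2.01 and 8.30 in series 3 and 17.1, 5.28, 15.6 and 13.2 in series 2. The list of bHLH factors holds only 11 features matched by symbol, 3 of them above the filter, and is not the whole family. Among those 3, TT8 (AT4G09820), a regulator of flavonoid pigments, was the highest at 60 min, with -2.56, -1.90 and 0.42 in series 4, 3 and 2.

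In all, 86 nuclear features of 9602 (0.896%) were past 2-fold lower at 15 min in both series 3 and series 4. They hold 7 of the 13 MYB, 5 of the 5 SAUR, 2 of the 10 Aux/IAA and 2 of the 19 XTH or expansin genes. Another 1 each belonged to the WRKY, ERF and DREB, NAC, JAZ and long non-coding RNA lists, and 65, most of them, were in no list. None of 169 cytosolic ribosomal protein, 46 photosynthesis, 24 RNA decay, 19 histone and 19 tubulin or actin genes was among them, and at the share over all features few or none would be. The same features had medians of 0.07, 0.14 and 0.03 at 15, 60 and 240 min in series 2, whose libraries did not choose them. In the libraries of series 3 and 4 that did not choose them, the medians at 60 and 240 min were -2.56 and -1.35 in series 3 and -2.52 and -3.12 in series 4, which share the 0 min library with the choice.

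**Figure D2:**
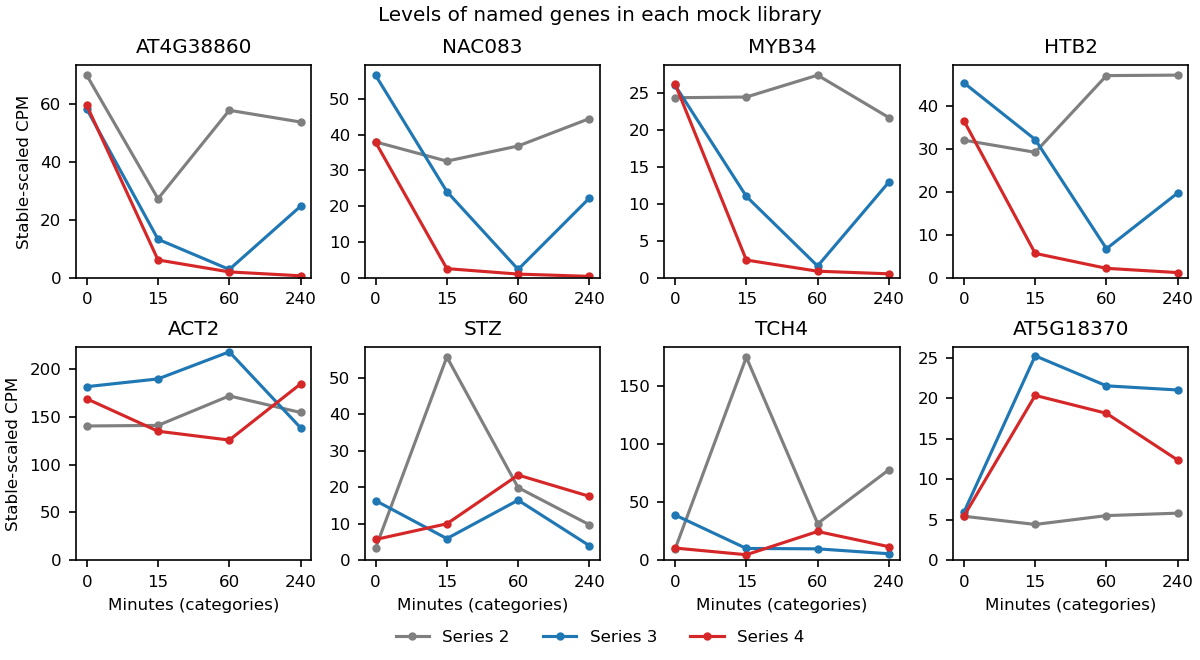
Stable-scaled CPM (y axis, from 0) of 8 named genes at 0, 15, 60 and 240 min (x axis, as categories), with a line per replicate series and a point per library. SAUR16 (AT4G38860), NAC083, MYB34 and HTB2 are lower at 15 and 60 min in series 3 and 4, STZ and TCH4 peak at 15 min in series 2, and AT5G18370 lies between 12.3 and 25.2 CPM in every later library of series 3 and 4.

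Histones and genes of growth and defence metabolism had medians below that of all features at each later time in series 4. The median of all features there was -0.47, -0.96 and -1.12 at 15, 60 and 240 min, and 94.6%, 94.8% and 96.4% of features lay below 0. Medians below are at 15, 60 and 240 min. The 19 of 29 histone genes above the filter had medians of -1.52, -2.75 and -3.06 in series 4, -0.32, -1.50 and -0.54 in series 3 and -0.03, 0.42 and 0.35 in series 2, and 15 of them were past 2-fold lower at 15 min in series 4 and 0 in series 3, beside 15.1% and 1.33% of all features. HTB2 (AT5G22880), a histone H2B, ran 36.6, 5.70, 2.22 and 1.22 CPM in series 4, 45.5, 32.3, 6.79 and 19.8 in series 3 and 32.1, 29.3, 47.2 and 47.3 in series 2. HTA9 (AT1G52740), an H2A.Z variant, was the highest of the histones at 60 min and ran 60.1, 51.6, 40.9 and 39.8 CPM in series 4, 59.6, 53.9, 64.8 and 54.9 in series 3 and 55.1, 56.9, 64.5 and 53.7 in series 2. HTB2 lay under its 0 min level in every later library of series 3 and 4, and HTA9 was above it in series 3 at 60 min. Histone genes have near-identical copies, and how reads were divided between them is not given in the sources used here.

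Wall-loosening genes (xyloglucan endotransglucosylases, XTH, and expansins) had medians of -1.16, -2.08 and -2.17 in series 4, -0.39, -1.09 and -0.55 in series 3 and 0.00, 0.22 and 0.03 in series 2 over 19 of 58 members. XTH16 (AT3G23730) ran 26.2, 6.46, 1.32 and 1.69 in series 4, 35.6, 22.5, 7.52 and 18.3 in series 3 and 26, 31.1, 22.6 and 24 in series 2. Glucosinolate biosynthesis genes, which make sulfur-rich defence compounds, had medians of -1.20, -2.11 and -2.96 in series 4, -0.22, -0.73 and 0.54 in series 3 and 0.60, 0.49 and 0.57 in series 2 over 11 of 19 members. CYP83B1 (AT4G31500), which commits indole intermediates to that pathway, ran 72.3, 16.4, 8.52 and 4.68 in series 4, 45.3, 29.6, 11.7 and 48.1 in series 3 and 62.6, 95.4, 75.3 and 112 in series 2. MAM1 (AT5G23010), which extends methionine side chains, was the highest of the list at 60 min, with -1.20, 0.53 and 0.58 in series 4, 3 and 2. CYP83B1 in series 3 was back near its 0 min level at 240 min.

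Auxin and stress regulators split within their families. Aux/IAA repressors had medians of -0.70, -0.87 and -1.39 in series 4, -0.27, -0.58 and -0.32 in series 3 and 0.07, 0.21 and 0.00 in series 2 over 10 of 29 members, and IAA4 (listed as ATAUX2-11, AT5G43700) ran 35.3, 4.95, 1.52 and 1.3 CPM in series 4 and 48, 21.6, 7.06 and 18.3 in series 3, against 35.9, 27.7, 32.5 and 26.5 in series 2. AXR3 (AT1G04250), another Aux/IAA repressor, ran 17.2, 14.5, 12.5 and 5.25 in series 4, 7.18, 5.74, 9.22 and 12.1 in series 3 and 11, 22.8, 18.6 and 11 in series 2. WRKY factors, regulators of defence, had medians of -0.80, -1.08 and -1.57 in series 4, -0.27, -0.94 and -0.49 in series 3 and 0.14, 0.14 and 0.16 in series 2 over 18 of 72 members. WRKY3 (AT2G03340) differed from 0 min by -2.85, -1.96 and -0.13 at 60 min in series 4, 3 and 2, and WRKY40 (AT1G80840) by 1.12, -0.99 and 1.43.

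ERF and DREB factors, of the ethylene and drought responses, had medians of -0.93, -0.52 and -0.84 in series 4, -0.62, -1.22 and -0.57 in series 3 and 0.11, 0.19 and -0.08 in series 2 over 12 of 60 members. RAP2.7 (AT2G28550), a repressor of flowering, was the lowest of this list at 60 min, although it is not itself an ERF or DREB factor. It ran 55.3, 10.5, 3.51 and 1.47 CPM in series 4 and 52.1, 32.7, 5.35 and 39.8 in series 3, against 49.8, 47.4, 46.6 and 52.3 in series 2. CRF6 (AT3G61630), a cytokinin response factor, was the highest of this list at 60 min, with 0.98, -1.41 and 0.41 in series 4, 3 and 2. NAC factors had medians of -0.49, -0.49 and -0.99 in series 4, -0.43, -0.69 and -0.57 in series 3 and 0.23, 0.49 and 0.36 in series 2 over 16 of 99 members.

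The 28 RNA decay factors, which uncap, deadenylate and digest messages, were near the median of all features. Over the 24 above the filter the medians were -0.47, -0.98 and -1.45 in series 4, -0.21, -0.73 and 0.00 in series 3 and -0.01, 0.09 and 0.12 in series 2. CAF1a (AT3G44260), a deadenylase, was highest at 60 min, and is described with the genes of series 2. JAZ repressors of jasmonate signalling had medians of -0.87, -0.50 and -1.25 in series 4, -0.45, -1.30 and -0.56 in series 3 and 1.44, 0.63 and 0.89 in series 2 over 6 of 12 members. Heat shock proteins had medians of -0.47, -0.67 and -0.95 in series 4, -0.26, -0.31 and -0.32 in series 3 and 0.16, 0.38 and 0.53 in series 2 over 10 of 18 members, from HSP81-3 (AT5G56010), with -1.73, -0.64 and 0.53 at 60 min in series 4, 3 and 2, to HSP60 (AT3G23990), with -0.61, 0.00 and 0.39.

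Of 325 microRNA gene features, 3 had a mean of at least 10 CPM. MIR5642a ran 203, 30.5, 24.9 and 10.9 CPM in series 4, 244, 134, 15.6 and 171 in series 3 and 229, 242, 216 and 228 in series 2, whereas MIR4228 ran 570.0, 505, 586 and 551 CPM in series 4, 690.2, 610.0, 645 and 493 in series 3 and 601, 618, 561 and 532 in series 2. In series 3 and 4 MIR5642a was lowest at 60 and 240 min, and MIR4228 had 493 CPM or more in every library. MIR5642a has a near copy, MIR5642b, and AT3G06325, a long non-coding RNA, had similar values, with 243, 41.5, 36 and 18.2 in series 4, 298, 173, 22.1 and 221 in series 3 and 293, 307, 278 and 283 in series 2. Reads may have been shared between these 3 features, and counts over these features do not measure mature microRNAs. Long non-coding RNAs had medians of -0.47, -0.84 and -0.89 in series 4, -0.26, -0.75 and -0.38 in series 3 and 0.06, -0.10 and -0.03 in series 2 over 20 of 3480 members. AT1G05163, the highest of them at 60 min, differed from 0 min by 0.50, 0.35 and -0.26, and its reads may be shared with near-identical features.

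**Figure D3:**
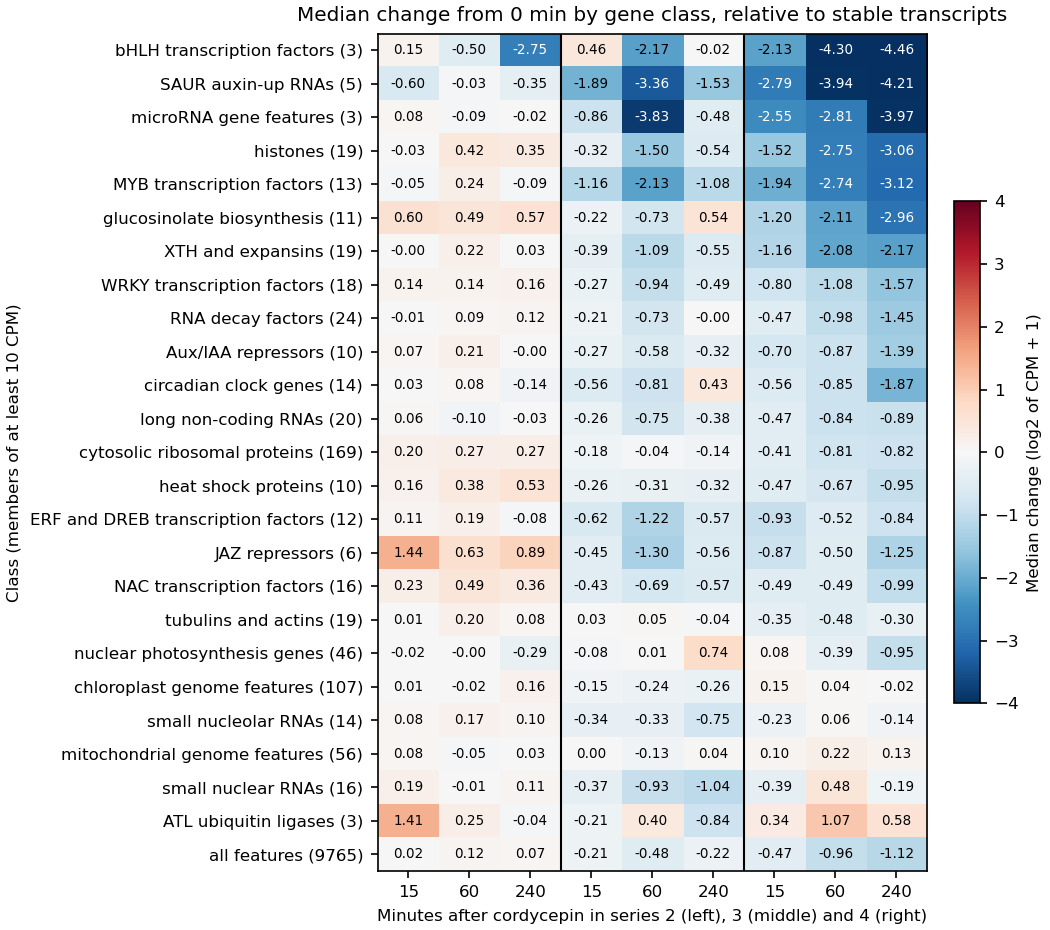
Median change from 0 min relative to stable transcripts (colour and number, log2 of CPM + 1) for each gene class with at least 3 members of at least 10 CPM (rows; number of such members in parentheses) at each time of each series (columns), ordered by series 4 at 60 min, with all features at the bottom. At 15 min in series 3 SAUR genes are lowest (-1.89) and MYB genes next (-1.16), and organelle features stay between -0.26 and 0.22 throughout.

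The scaling decides the sign of many of these medians. TMM, which centres most features near 0, moved the median of all features at 60 min to 0.11 in series 4 and 0.10 in series 3. SAUR, MYB, WRKY, XTH and expansin, bHLH, glucosinolate, histone and microRNA features kept a negative median at 60 min in series 3 and in series 4 under all 4 scalings (30 stable transcripts, 12 nuclear stable transcripts, total counts and TMM). Under TMM the SAUR median at 60 min was -3.36 in series 4 and -2.83 in series 3, and that of histones -1.91 and -0.92. Under TMM in series 4 at 60 min the median was above 0 for Aux/IAA (0.21), ERF and DREB (0.56), JAZ (0.58), NAC (0.59), RNA decay (0.11), clock (0.22), heat shock (0.44) and long non-coding RNA (0.17) lists. It was likewise above 0 for cytosolic ribosomal proteins (0.29), photosynthesis genes (0.72) and tubulins and actins (0.63), which are described below.

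Organelle transcripts took a larger share of the counts at each later time in series 4, and their share differed little between times in series 3 and 2. They made up 35.7, 42.6, 46.1 and 46.9% of the counts at 0, 15, 60 and 240 min in series 4, 39.5, 41.9, 40.4 and 40.5% in series 3 and 38.1, 38.1, 36.6 and 38.4% in series 2. The 56 mitochondrial features above the filter had a median log2 change in share of 0.34, 0.71 and 0.70 in series 4 and 0.12, 0.18 and 0.14 in series 3, against 0.01, -0.15 and -0.04 in series 2. For the 107 chloroplast features the median change in share was 0.38, 0.53 and 0.57 in series 4, -0.02, 0.08 and -0.16 in series 3 and -0.05, -0.12 and 0.09 in series 2. Relative to stable transcripts, 15 of which are organelle features themselves, both groups were near 0, so these medians are in part set by the scaling.

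Chloroplast features were not alike. ATCG00280 was the highest at 60 min and ran 8472, 13179, 13621 and 11672 scaled CPM in series 4, 7469.6, 9938, 11186 and 12737 in series 3 and 9250.2, 10423, 9387 and 12183 in series 2. ATCG00410 was the lowest, with 336, 8.34, 2.61 and 2.58 in series 4, 449, 147, 5.43 and 102 in series 3 and 359, 285, 392 and 289 in series 2. Its change at 60 min, -6.54 in series 4 and -6.13 in series 3, was larger than that of any SAUR gene named above. At 15 min in series 3 its change of -1.61 was smaller than the -2.05 of SAUR16. In series 4 at 60 min, 18 of the 107 were past 2-fold lower and 4 past 2-fold higher, beside 47.7% and 0.625% of all features. Chloroplast identifiers carry no names in the reference tables used here. Among mitochondrial features ATMG01220 was lowest at 60 min (-1.05, -0.67 and -0.45 in series 4, 3 and 2) and ATMG00960 highest (0.64, 0.11 and 0.24).

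Among nuclear messages, those of the cytoskeleton and, in series 3, of translation stayed near the stable transcripts. Tubulins and actins had medians relative to stable transcripts of -0.35, -0.48 and -0.30 in series 4, 0.03, 0.05 and -0.04 in series 3 and 0.01, 0.20 and 0.08 in series 2 over 19 of 24 members, and in share of -0.12, 0.01 and 0.29 in series 4 and 0.15, 0.36 and 0.06 in series 3, against -0.06, 0.11 and 0.01 in series 2. ACT2 (AT3G18780), a common reference gene, ran 169, 135, 126 and 185 CPM in series 4, 182, 189.9, 218 and 139 in series 3 and 141, 141, 172 and 155 in series 2, and TUB8 (AT5G23860) 36.4, 16.6, 9.71 and 10.3 CPM in series 4, 40.3, 31.9, 19.8 and 30.5 in series 3 and 39.7, 38.4, 38.8 and 35.3 in series 2. ACT2 had 126 CPM or more in every library, whereas TUB8, the lowest of its list at 60 min, was below its 0 min level in every later library of series 3 and 4. Cytosolic ribosomal protein genes had medians of -0.41, -0.81 and -0.82 in series 4, -0.18, -0.04 and -0.14 in series 3 and 0.20, 0.27 and 0.27 in series 2 over 169 of 190 members, and 50 of the 169 were past 2-fold lower at 60 min in series 4, where 47.7% of all features were.

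Within the ribosomal proteins AT3G57490, of the S5 family, ran 33.5, 10.4, 3.96 and 2.72 CPM in series 4, 34.7, 25.7, 11.8 and 28.3 in series 3 and 28, 37.6, 38.1 and 41.7 in series 2. AT2G27720, an acidic ribosomal protein, ran 147, 119, 116 and 103 CPM in series 4, 132, 122, 168 and 121 in series 3 and 122, 139, 156 and 155 in series 2. AT3G57490 was low at 60 and 240 min in series 4 and AT2G27720 kept most of its level. The small RNAs of the nucleus differed in direction between series at 60 min. Small nuclear RNAs, the cores of the spliceosome, had medians of -0.39, 0.48 and -0.19 in series 4, -0.37, -0.93 and -1.04 in series 3 and 0.19, -0.01 and 0.11 in series 2 over 16 of 82 members, and small nucleolar RNAs, which guide rRNA modification, of -0.23, 0.06 and -0.14 in series 4, -0.34, -0.33 and -0.75 in series 3 and 0.08, 0.17 and 0.10 in series 2 over 14 of 287. At 60 min U4.2 (AT3G06900) was the highest small nuclear RNA, with 0.72, -0.66 and 0.38 in series 4, 3 and 2, and U2.10 (AT2G04375) the lowest, with 0.51, -1.02 and -0.56. The small nucleolar RNA U3D (AT5G54075) had 0.88, -0.50 and 0.76 and AT2G04955 -0.39, -0.55 and 0.16. Many of these genes have near-identical copies, and no nuclear transfer RNA reached 10 CPM. Of the 30 stable transcripts, AT3G11630, a thioredoxin-family protein, was lowest at 60 min (-0.12, -0.11 and -0.13 in series 4, 3 and 2) and AT1G57720, an elongation factor subunit, highest (-0.30, 0.23 and 0.29).

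Photosynthesis and clock genes differed in direction between series 3 and 4 at 240 min. So did a score made from clock genes themselves, which is therefore not separate from their values. A score of 3 morning genes (CCA1, LHY and PRR9) minus 4 evening genes (TOC1, ELF4, PCL1 and GI) was 0.62, 1.13, 0.23 and -1.79 at 0, 15, 60 and 240 min in series 4, -1.73, -1.86, -0.68 and 0.81 in series 3 and 0.34, 0.38, 0.92 and -0.29 in series 2. The library of 240 min thus lay on the other side of the score's largest gap from its own 0 min library in series 3 and in series 4. CCA1 (AT2G46830), a core repressor of the clock, ran 39.4, 43.8, 22.2 and 2.26 CPM in series 4, 10.0, 4.35, 8.88 and 44.7 in series 3 and 38, 40.1, 47.1 and 20.5 in series 2, and so stood higher at 240 min than at 0 min in series 3. LHY (AT1G01060), its partner, was the highest clock gene at 60 min and ran 42.5, 44.5, 29.2 and 6.58 CPM in series 4, 17.3, 8.85, 15.5 and 45 in series 3 and 39.3, 49.6, 45.9 and 22.9 in series 2. PRR9 (AT2G46790) differed from 0 min by -2.46, 2.27 and 0.17 at 240 min in series 4, 3 and 2.

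The 14 clock genes above the filter had medians of -0.56, -0.85 and -1.87 in series 4, -0.56, -0.81 and 0.43 in series 3 and 0.03, 0.08 and -0.14 in series 2. The evening gene TOC1 (AT5G61380) ran 51.5, 28.1, 28.2 and 31 CPM in series 4, 98, 79.4, 54.2 and 34.7 in series 3 and 46.6, 53.8, 51.9 and 57.1 in series 2. PCL1 (AT3G46640) differed by -0.94, -0.93 and 0.32 at 240 min, GI (AT1G22770) by -1.19, 0.91 and -0.29, and ELF4 (AT2G40080) ran 0.789, 0.56, 1.29 and 1.69 CPM in series 4, 3.08, 2.63, 1.18 and 0.6 in series 3 and 0.874, 0.963, 1.07 and 1.26 in series 2. ELF3 (AT2G25930), an evening-complex gene, was the lowest clock gene at 60 min with -1.80, -1.01 and 0.02.

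Nuclear photosynthesis genes had medians of 0.08, -0.39 and -0.95 in series 4, -0.08, 0.01 and 0.74 in series 3 and -0.02, 0.00 and -0.29 in series 2 over 46 of 48 members. At 240 min 15 of the 46 were past 2-fold higher in series 3 and 23 past 2-fold lower in series 4, beside 0.563% and 55.6% of all features. LHCB2.2 (AT2G05070), a light-harvesting antenna protein, ran 579, 683, 320.4 and 36.1 CPM in series 4, 88.6, 53.6, 62.8 and 851 in series 3 and 765, 619.5, 713 and 474 in series 2, and CAB3 (AT1G29910), another, ran 1498, 2130.0, 1555 and 279.9 CPM in series 4, 371, 329.7, 296 and 2102 in series 3 and 2130.1, 1981, 1983 and 1328 in series 2. Both were chosen after their values were seen and have near-identical relatives. LHCB2.3 (AT3G27690) was the lowest of the list at 60 min (-1.53, -1.01 and 0.19 in series 4, 3 and 2) and PSBO2 (AT3G50820), of the oxygen-evolving complex, the highest (-0.38, 0.26 and 0.19). The part of the clock score in these values was not tested.

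At 15 min TCH4, CML38, WRKY40, SZF1, CAF1a, JAZ1 and JAZ6 were higher than at 0 min in series 2. In all, 200 features were past 2-fold higher there (2.05% of all features), with a median of 1.59 that the choice itself fixes. In series 3 and 4, which did not choose them, the same 200 had medians of -0.62 and -0.50 at 15 min, beside -0.21 and -0.47 for all features. In series 3 51 of them (25.5%) and in series 4 46 (23%) were past 2-fold lower, beside 1.33% and 15.1% of all features. TCH4 (AT5G57560), a touch-induced XTH, ran 10.3, 4.55, 24.6 and 11.5 CPM in series 4, 38.9, 9.99, 9.64 and 5.40 in series 3 and 9.42, 175, 31.5 and 78 in series 2. CML38 (AT1G76650), a calmodulin-like protein, ran 2.13, 3.00, 16.8 and 10.8 CPM in series 4, 9.60, 1.65, 9.30 and 1.27 in series 3 and 1.13, 56.6, 9.28 and 7.66 in series 2. Both were highest at 15 min in series 2, and in series 3 and 4 that library had 9.99 CPM or less for each. CML38, like SZF1 below, was picked after its values were seen.

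WRKY40 ran 11.9, 11.6, 27.1 and 20.1 CPM in series 4, 45.2, 10.6, 22.2 and 7.24 in series 3 and 12.6, 133, 35.5 and 18.3 in series 2, and SZF1 (AT3G55980), a salt-inducible zinc finger protein, 23.1, 22.2, 42.8 and 28.7 CPM in series 4, 66.3, 22.3, 33.9 and 13.3 in series 3 and 19.2, 255, 42.6 and 18.7 in series 2. CAF1a ran 5.69, 4.52, 8.14 and 5.93 CPM in series 4, 28.6, 9.63, 9.03 and 4.17 in series 3 and 5.99, 69.8, 19.9 and 4.69 in series 2. The 15 min library of series 2 was above all other 11 in each of these 3 genes. JAZ1 (AT1G19180), a jasmonate repressor, ran 17.5, 12.1, 30.8 and 14.8 CPM in series 4, 35.7, 15.1, 12.6 and 14.9 in series 3 and 19, 106, 39.9 and 50.6 in series 2, and JAZ6 (AT1G72450) 30.8, 8.11, 12.3 and 5.25 CPM in series 4, 41.4, 19.6, 7.55 and 18.7 in series 3 and 28.7, 116, 42.3 and 60.5 in series 2. In each of these genes the library of 15 min was the highest of series 2, and at 0 min series 3 stood above series 2 and 4.

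Among features higher than at 0 min in all 3 series, the naming rule gave 3 at each time. At 60 min these were STZ, AT4G14370 and PUB19. STZ (AT1G27730), a zinc finger repressor of the salt response and the only ZAT factor of 8 above the filter, ran 5.63, 9.92, 23.3 and 17.5 CPM in series 4, 16.3, 5.87, 16.4 and 3.92 in series 3 and 3.27, 55.6, 19.8 and 9.66 in series 2, with a fitted change at 60 min of 1.24 ± 0.84 (SE; edgeR adjusted p 0.555). AT4G14370, annotated as a TIR-NBS-LRR disease resistance protein, ran 4.25, 14.4, 46.1 and 39.7 CPM in series 4, 8.15, 4.93, 32 and 3.32 in series 3 and 3.01, 16.6, 5.49 and 14.4 in series 2, with 2.44 ± 0.92 (SE; edgeR adjusted p 0.555). PUB19 (AT1G60190), a ubiquitin ligase of drought responses, ran 5.28, 33.3, 26.6 and 18.5 CPM in series 4, 5.33, 3.76, 19.3 and 10.9 in series 3 and 4.21, 12.9, 10.1 and 2.20 in series 2, with 1.92 ± 0.80 (SE; edgeR adjusted p 0.555). The rule itself asks for a higher value at 60 min than at 0 min in all 3 series, which STZ met in series 3 by only 0.01.

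At 15 min the rule named AT3G02480, AT4G31405 and LEA7. AT3G02480, of the late embryogenesis abundant family of water-stress proteins, ran 6.76, 19.3, 46.9 and 4.38 CPM in series 4, 3.15, 4.15, 4.29 and 3.50 in series 3 and 7.96, 17.9, 14.6 and 35 in series 2. LEA7 (AT1G52690), of the same family, ran 0.72, 2.57, 69.7 and 4.76 CPM in series 4, 0.109, 0.162, 1.86 and 0.106 in series 3 and 0.259, 1.39, 2.19 and 31.5 in series 2. LEA7 thus reached its highest level in 1 library of series 4 and in 1 of series 2, at different times. At 240 min the rule named RD26 (AT4G27410), a NAC factor of drought and abscisic acid, with 3.22, 20.0, 32.4 and 11.6 in series 4, 3.23, 3.08, 7.29 and 7.31 in series 3 and 3.95, 11.6, 14 and 8.68 in series 2. RD26 was highest at 60 min in series 4 and 2. The rule also named AT3G33004, with 7.62, 15, 11.3 and 10.9 CPM in series 4, 10.8, 11.3, 11.5 and 17.2 in series 3 and 13.1, 11.9, 10.4 and 15.1 in series 2, and AT5G18370, described next. CNI1 (AT5G27420), a ubiquitin ligase of the ATL family, led the 3 ATL genes above the filter at 60 min with 2.25, 1.42 and 0.53 in series 4, 3 and 2, and ATL6 (AT3G05200), the lowest, had 0.59, 0.06 and 0.03.

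Other features were higher in series 3 and 4 while their values in series 2 stayed near 0 min. At 15 min, 4 nuclear features with a mean of at least 10 CPM were past 2-fold higher in both series 3 and series 4, namely EGY3, AT4G02760, AT4G31405 and AT5G18370, and none of them was in series 2. AT5G18370, a TIR-NBS-LRR gene, ran 5.42, 20.3, 18.1 and 12.3 CPM in series 4 and 5.91, 25.2, 21.5 and 21 in series 3, against 5.41, 4.39, 5.49 and 5.79 in series 2. AT4G02760 ran 2.68, 24.7, 8.89 and 7.86 in series 4 and 3.73, 17.3, 12.8 and 27.4 in series 3, against 3.17, 2.77, 3.05 and 2.49 in series 2. In both, every later library of series 3 and 4 lay above all 4 of series 2. EGY3 (AT1G17870), a plastid membrane protein, ran 6.04, 19.9, 16.8 and 7.26 in series 4 and 3.41, 16.9, 12.7 and 18.5 in series 3, against 8.19, 5.55, 6.47 and 5.91 in series 2. AT4G31405 ran 6.90, 15.5, 7.52 and 7.80 in series 4 and 7.90, 18.4, 17.3 and 15.9 in series 3, against 5.76, 6.67, 4.08 and 6.28 in series 2. In RefSeq's annotation of TAIR10.1 each begins a short way after another gene on the same strand: AT4G02760 lies 16 bases after AT4G02770, EGY3 161 after AT1G17880, AT5G18370 670 after AT5G18380 and AT4G31405 14 after AT4G31408. At 0 min these upstream genes had means of 539, 159, 220 and 5.00 CPM, in that order. The last, AT4G31408, is thus under the 10 CPM asked of an upstream gene below.

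Position was therefore examined for features of any level, a step taken after these values were seen. At 15 min, 195 nuclear features were past 2-fold higher in both series 3 and series 4, and 142 of them (72.8%) began within 1000 bases downstream of a same-strand gene of at least 10 CPM at 0 min. Of all 37741 nuclear features with a position, 3891 (10.3%) did. At 60 and 240 min it was 73 of 171 (42.7%) and 25 of 32 (78.1%).

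The stretch between the end of the upstream gene and the start of the feature is shown for the 4 features with the largest 15 min difference, taking the smaller of series 3 and 4, among low features 15 to under 250 bases downstream. They are shown so that the short distances can be seen. Sequences are from RefSeq TAIR10.1, read 5′ to 3′ on the strand of both genes.
AT1G30380 to AT1G30390: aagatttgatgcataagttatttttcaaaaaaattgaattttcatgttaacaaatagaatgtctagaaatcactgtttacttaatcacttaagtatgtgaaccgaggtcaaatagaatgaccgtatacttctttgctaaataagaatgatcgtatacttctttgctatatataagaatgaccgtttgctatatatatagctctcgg
AT3G46740 to AT3G46730: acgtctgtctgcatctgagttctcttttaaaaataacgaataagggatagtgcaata
AT3G47650 to AT3G47660: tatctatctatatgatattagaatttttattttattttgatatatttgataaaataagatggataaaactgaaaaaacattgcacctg
AT1G74840 to AT1G74830: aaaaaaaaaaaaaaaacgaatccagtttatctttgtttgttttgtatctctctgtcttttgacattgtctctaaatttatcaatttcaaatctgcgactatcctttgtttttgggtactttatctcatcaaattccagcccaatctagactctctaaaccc

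The first gap lies at chr1:10723248-10723453 on the plus strand, after PSAK (AT1G30380), a photosystem I subunit. AT1G30390 beyond it had 0.823, 10.3, 3.98 and 3.15 CPM at 0, 15, 60 and 240 min in series 4 and 0.652, 11.2, 8.24 and 15.3 in series 3, against 0.583, 0.848, 0.907 and 0.693 in series 2, while PSAK itself had 725, 686, 559 and 504 in series 4. The second lies at chr3:17215756-17215812 on the minus strand, after TOC75-III (AT3G46740), the import channel of the chloroplast envelope, and AT3G46730, an NB-ARC resistance gene, had 0.446, 9.00, 4.83 and 2.58 in series 4 and 0.471, 7.33, 7.93 and 7.66 in series 3, against 0.162, 0.347, 0.701 and 0.367 in series 2. The third lies at chr3:17570608-17570695 on the plus strand, between AT3G47650 and AT3G47660, an RCC1-family gene with 0.892, 10.7, 1.57 and 1.82 in series 4 and 1.05, 9.31, 9.60 and 7.13 in series 3, against 0.518, 0.732, 0.454 and 0.53 in series 2. The fourth lies at chr1:28115282-28115442 on the minus strand, between AT1G74840 and AT1G74830, which had 0.0686, 7.29, 3.73 and 4.84 in series 4 and 0.181, 4.64, 8.09 and 3.11 in series 3, against 0.0324, 0.0385, 0 and 0 in series 2. In all 4 the upstream gene was higher at 0 min than the feature at any time.

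Position was looked at because of the values of series 3 and 4, so sums in those libraries are no separate check. Low features were taken as those under 1 CPM in the mean of the 0 min libraries of the other 2 series. A series' own 0 min library thus had no part in the choice. The features beyond the sequences shown above are among these low features. Of 579 such features beginning under 250 bases downstream of a same-strand gene of at least 10 CPM, summed scaled CPM was 132, 640.3, 283 and 242 at 0, 15, 60 and 240 min in series 4. In series 3 the sum over 579 features was 148, 514, 579 and 455, and in series 2, over 577, it was 110.3, 124, 143 and 122. At 15 min 483 features were higher than at 0 min and 55 lower in series 4, 491 higher and 52 lower in series 3, and 254 higher and 194 lower in series 2. The higher ones were 83.4%, 84.8% and 44%, beside 25.9%, 25.3% and 19.3% of all low features. Over all low features, 5164 were higher and 4092 lower of 19943 in series 4, and 5073 and 7465 of 20027 in series 3. In series 2, 3828 were higher and 3198 lower of 19865. The remaining low features had the same value at both times, which lowers the shares over all of them. With 1 library per series and time there is no test, and 3 libraries against 3 could not go below an exact permutation p of 0.10.

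**Figure D4:**
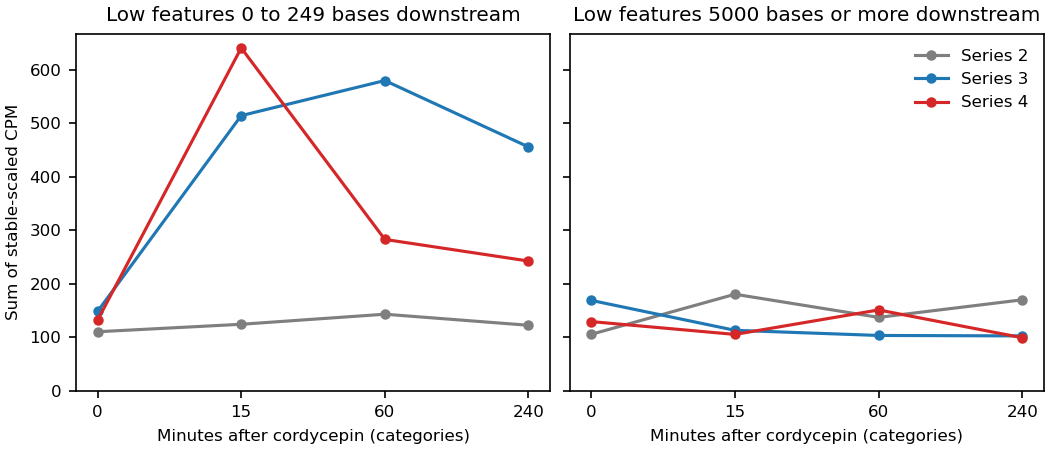
Summed stable-scaled CPM (y axis, from 0) of low features at 0, 15, 60 and 240 min (x axis, as categories) in each replicate series, for features under 250 bases (left) and 5000 bases or more (right) downstream of a same-strand gene of at least 10 CPM. On the left series 3 and 4 reach 514 and 640.3 at 15 min, and series 2 stays at 143 or less.

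The difference shrank with distance. From the nearest to the farthest of 6 gap classes (divided at 250, 500, 1000, 2000 and 5000 bases), the log2 ratio of the sum at 15 min over that at 0 min was 2.28, 2.26, 2.32, 1.15, 0.52 and -0.30 in series 4. It was 1.79, 1.54, 1.21, 0.35, -0.24 and -0.58 in series 3 and 0.17, 0.24, 0.29, 0.11, 0.34 and 0.77 in series 2. Where the nearest gene of at least 10 CPM lay on the opposite strand with its end facing the feature, the 6 ratios ran from 0.36 to 0.73 in series 4, from -0.16 to 0.12 in series 3 and from 0.10 to 0.73 in series 2. For features that overlap such an opposite-strand gene the ratios were 1.12, 0.61 and 0.38 in series 4, 3 and 2, and for those overlapping a same-strand gene 1.53, 1.02 and 0.29. The libraries are stranded, but the strand setting used in counting is not given in the sources used here.

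**Figure D5:**
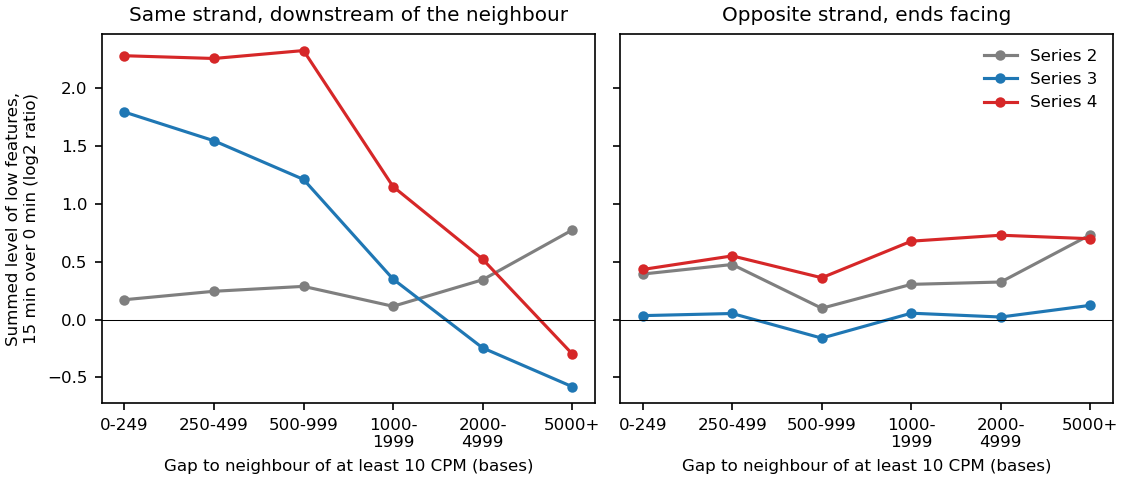
Log2 ratio of the summed level of low features at 15 min over 0 min (y axis) by the gap to a neighbouring gene of at least 10 CPM (x axis, in bases), with a line per replicate series. Downstream on the same strand (left) the ratio is 2.28 in series 4 and 1.79 in series 3 at the shortest gap and -0.30 and -0.58 at the longest; with opposite-strand neighbours (right) it stays at 0.73 or less.

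It grew with the level of the upstream gene. Among low features under 500 bases downstream, the same ratio for upstream genes of under 1, 1 to 10, 10 to 50, 50 to 200 and at least 200 CPM was 0.40, 1.41, 2.07, 2.86 and 3.01 in series 4 and -0.13, 0.92, 1.52, 2.08 and 2.88 in series 3, against 0.20, 0.20, 0.19, 0.19 and 0.32 in series 2. The highest class held 35, 37 and 36 features in series 4, 3 and 2. The series differed in time course as well. In series 4 the sum at the shortest gap was highest at 15 min, and in series 3 it was highest at 60 min and was 455 at 240 min, where the median of all features was -0.22. These 2 series are those in which short-lived transcripts were lower. The same pattern was examined in 7 gap classes with 2 strand relations and 5 neighbour levels, all chosen after the values were seen. What produced the counts beyond the upstream genes was not tested.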

How the data were processed

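Ribosome-depleted, stranded total RNA libraries were sequenced with single reads, per the labels' protocols. The submitters' processing notes name TopHat2, Bowtie2 and the build TAIR10, and the counting tool, its annotation and its strand setting are not given in the sources used here. The authors deposited 1 table of raw counts per feature, unnormalized and with a column per library. Only the 12 mock columns entered the comparisons, and the other 12 columns were used for the closing values alone.

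Total counts were 24021278 to 32763368 per library, which leaves few reads behind features near 1 CPM. Library sizes were scaled to 30 presumed stable transcripts (12 nuclear, 15 organelle, 3 nuclear copies of mitochondrial genes). Changes by series were log2(scaled CPM + 1) minus 0 min, for features with a mean of at least 10 CPM, with 2-fold as the limit for counts. Each time was compared with 0 min over the 3 series by edgeR 4.0.16 (R 4.3.3) in 1 quasi-likelihood fit of all 12 libraries after filterByExpr, with Benjamini-Hochberg adjustment and a threshold of 0.05. The fit was also run on simulated counts without differences between series, which leaves its behaviour under the spread of these libraries untested. DESeq2 1.42.0, other scalings, filters, terms and left-out libraries were alternatives. Of 38194 features, 37751 matched RefSeq's TAIR10.1 annotation by locus tag. Chloroplast, mitochondrial and microRNA identifiers such as ATCG00410, ATMG01220 and MIR5642a were among those that did not. Coordinates, sequences, gaps and names come from that annotation.

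Because no feature was called over the 3 series, the 3 with the largest median change in each direction at each time were named, with the same sign in all series. The lowest and highest member of each of 26 gene classes at 60 min, by the median over series, and the checks (stable and clock genes) were named too. Not every gene this rule gives is reported here. The gene lists, the series and the tests were chosen with earlier results of these data known. Changes from the mean of the 3 libraries of 0 min, the description by position, its limits, the fits without series 2 or the 240 min libraries under a block, the exclusion of AT2G46800 and AT3G25520 from lists that their symbols had matched, and CML38, SZF1, EGY3, AT4G02760, WAKL3, LHCB2.2, CAB3 and the genes of the sequence set were chosen after their values were seen.

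Same-numbered libraries did not deviate together throughout. The correlations of their deviations from the group means were between -0.237 and 0.853. Among the later libraries they were 0.50, 0.57 and 0.85 in series 2 and 0.59, 0.59 and 0.74 in series 4. In series 3 they were 0.38, 0.25 and -0.20. Between libraries of different number the correlations ran from -0.93 (60 min of series 2 with 240 min of series 4) to 0.76 (60 min of series 2 with 240 min of series 3). Deviations within a group are tied to each other by its mean, so values for same and different numbers are not independent. The protocols name no block, so the main fit has none and the replicate number was an alternative. The changes by series still set each library against the 0 min library of its own number, by label alone. Replicates of 1 time differed by 17.8 to 222 in chi-square per degree of freedom, and none agreed within sampling noise.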

Additional observations from a re-analysis of the deposited data

Results flagged for a closer look

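The 12 libraries of the stimulus arm, in which the same kind of leaves had floated with bikinin, 2,4-D and kinetin before cordycepin, entered no comparison above. The low features under 250 bases downstream of a same-strand gene of at least 10 CPM were summed in them, over the 572 such features under 1 CPM in the mean of the 3 mock libraries of 0 min. In 6 of the 9 later libraries the sum lay above that of their own 0 min library by more than in mock replicate 2, and these are given here as a signal in data outside the comparisons.

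In stimulus replicate 2 the summed scaled CPM was 179, 533, 934 and 481 at 0, 15, 60 and 240 min, which is a log2 ratio to 0 min of 1.57, 2.38 and 1.43 at the later times. In stimulus replicate 3 it was 201, 204, 611 and 905, with log2 ratios of 1.61 at 60 min and 2.17 at 240 min and a 15 min library near its 0 min level. In stimulus replicate 4 it was 504, 769, 425 and 469, with a log2 ratio of 0.61 at 15 min, and its 0 min library already stood above those of replicates 2 and 3. Far from such a gene, at 5000 bases or more, the sums were 849, 652, 281 and 297 in replicate 2, 906, 914, 754 and 321 in replicate 3 and 591, 322, 268 and 304 in replicate 4. The series that stood low in the mock arm, number 2, was among the high ones in the stimulus arm. Whether the labels of arm and replicate hold for these libraries was not tested. No test was made between the arms, and what produced these values was not tested.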

How the results depend on the processing

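The counts of features lower and higher stayed at 0 under every scaling, the filter, the clock-side term and each left-out series or 240 min library, with these exceptions at 60 and 240 min. DESeq2 called 3 features higher at 60 min and 1 at 240 min. Leaving out each series in turn, or each 240 min library, gave 0 to 0 calls in each direction at each time. With the replicate number as a block edgeR called 0 features in all comparisons. At an unadjusted p under 0.05 that fit had 333, 4722 and 1887 features lower and 718, 694 and 439 higher at 15, 60 and 240 min, against 14, 144 and 75 lower and 575, 567 and 273 higher without the block. Lower and higher together stayed under a 0.05 share of the 21139 features at each time without the block. With it they did so at 15 min only. The block with series 2 left out, chosen after the data were seen, called 642 lower and 204 higher at 60 min, with bHLH071 (AT5G46690) at -6.18 (adjusted p 0.0493). TMM moved the series medians to 0.034 in series 4 at 15 min, 0.10 in series 3 at 60 min, 0.11 in series 4 at 60 min and 0.10 in series 4 at 240 min. This follows from its construction, which centres most features at 0. Against the mean of the 3 libraries of 0 min, in place of the one with the same number, the medians at 15, 60 and 240 min were -0.44, -0.92 and -1.10 in series 4, -0.15, -0.42 and -0.15 in series 3 and -0.069, 0.028 and -0.024 in series 2, an alternative chosen after the data were seen.

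Of the values for genes named by largest change, 293 kept their direction and their side of the threshold and 1 passed it. Of those for class members and checks, 148 moved by less than 1 SD over the series and 23 by more. The log2 ratio at 15 min of low features under 250 bases downstream was 2.16 to 2.84 in series 4, 1.68 to 2.26 in series 3 and 0.10 to 0.21 in series 2 over all settings tried. The depth limits single low features, and the 3 libraries per time limit the replicated test.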
